A study of Mus musculus with 6 samples.

Results

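The TGF-beta and BMP pathway genes described here are 53 genes, of the 25043 genes to which the deposited RNA-Seq table could be matched. They were taken from a written list of ligands, receptors, Smads, Id genes and secreted antagonists, and each gene stands for its RefSeq transcript with the highest mean. RNA was sequenced from WT MEFs (3 libraries) and *Anp32e* null MEFs (3 libraries). MEFs are mouse embryonic fibroblasts, here primary cells from WT and *Anp32e-/-* embryos, kept in serum-containing medium and used below passage 8. How many embryos each genotype came from is not given in the sources used here, so the libraries of a genotype may share their source. The value analysed is the authors' mean over all 6 libraries of counts normalized by size factors. A level in this mean can come from either genotype or from both, and the mean carries no value per library, no spread between replicates and no sequencing depth. No comparison of WT with *Anp32e* null MEFs is given, since the authors' own comparison columns were not used and a pooled mean holds none. Differences between genes are descriptions of pooled levels. Because RNA came from whole cultures, fewer cells expressing a gene and less RNA per cell cannot be told apart.

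TGF-beta family ligands are secreted dimers that bring type I and type II serine/threonine kinase receptors together. The type II receptor phosphorylates the type I receptor, which phosphorylates receptor Smads. *Smad2* and *Smad3* serve TGF-beta and activins, whereas *Smad1*, *Smad5* and *Smad9* serve BMPs, and both branches share *Smad4*. In fibroblasts TGF-beta is known for driving matrix production and contractile genes, and BMPs are known for inducing Id genes, whose products block basic helix-loop-helix transcription factors.

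*Anp32e*, the gene targeted in the null MEFs, lies at chr3:95929245-95947387 on GRCm38 and had an authors' mean of 2190 normalized counts. Since that mean pools both genotypes, it does not check the genotype labels.

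Of the 53 members, 50 (94.3%) reached 10 normalized counts in the pooled mean, the floor used here, against 14246 of all 25043 genes (56.9%). The members below it were *Bmp7*, *Bmp5* and *Gdf5*, all ligands of the BMP and GDF group, at 0.169, 2.58 and 7.39 normalized counts. Means of over 1000 normalized counts were found for 26 members. Every role was thus represented by at least 1 gene above the floor. For comparisons between genes each mean was divided by the exonic length of the transcript, which gives normalized counts per kb.

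On that per-kb scale the median level of the 50 members above the floor was 313, beside 353 for all genes above it. The side on which the members' median fell depended on the floor, since with a floor of 3, chosen after seeing the data, it was 300.1 per kb for members and 279 for all genes. The level per kb of 24 members (48%) lay above the all-gene median, and 8 (16%) were in the top 25% of genes. Only *Id3*, *Id1* and *Fstl1* reached the top 10% (6% of the members above the floor), and none reached the top 1%. Pathway genes thus sat near the middle of the distribution, with a few abundant members. Levels per kb ran from 5.47 for *Bmp3* to 13103 for *Id3*, which is 2394-fold. *Id3*, *Id1* and *Fstl1* together held 59.3% of the summed level per kb of all members.

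**Figure D1:**
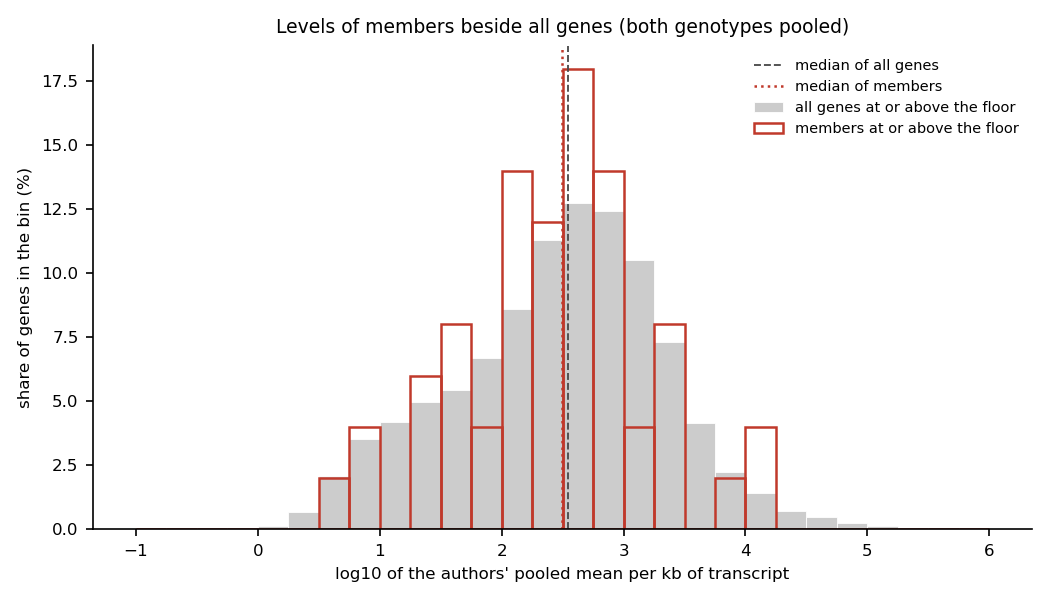
Share of genes by log10 of the authors' pooled mean per kb of transcript, for all genes at or above 10 normalized counts (grey bars) and for the 50 members at or above it (red outlines). The medians, 313 for members (dotted) and 353 for all genes (dashed), lie close together.

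Among the TGF-beta ligands, *Tgfb3* (chr12:86056743-86079041) was the most abundant, at 2689 normalized counts per kb. *Tgfb1* (chr7:25687002-25705077), the ligand best known from wound healing and fibrosis, stood at 445 per kb, and *Tgfb2* (chr1:186622787-186709697) at 108 per kb. The level per kb of *Tgfb3* was 6.04 times that of *Tgfb1* and 24.9 times that of *Tgfb2*. In means not divided by length these folds were 9.39 and 16.5. *Tgfb3* thus held 82.9% of the summed level per kb of the 3 ligands. Transcripts of other genes lie across 12.4% of the exonic bases of *Tgfb3*, on the opposite strand, and the sources used here do not name the strand option of the counting.

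BMP and GDF ligands had a lower summed level per kb than TGF-beta ligands, and 8 of 11 were above the floor. Taken singly, *Bmp4*, *Gdf11* and *Gdf15* were each above *Tgfb2* per kb. *Bmp4* (chr14:46383525-46390669), which patterns mesoderm and many organs in the embryo, was highest at 410 normalized counts per kb. *Gdf11* (chr10:128880524-128891718), a relative of myostatin that signals through activin receptors, followed at 300 per kb. *Gdf15*, a distant family member induced by cell stress, was at 111 per kb. *Bmp4* and *Gdf11* were the main transcripts of this role, with 43.5% and 31.9% of its summed level per kb. The order of this pair rests on length, since before division by length *Gdf11* had the higher mean, at 1219 normalized counts against 846 for *Bmp4*.

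The remaining ligands of the group were scarce. *Gdf6*, a regulator of joint and skull development, was at 42.1 normalized counts per kb, *Bmp6* at 32.4 and *Bmp2*, a classical inducer of bone, at 30.3. *Gdf10* and *Bmp3*, a pair of related ligands, had 6.39 and 5.47 per kb. *Bmp4* was thus 13.5 times as abundant per kb as *Bmp2*, its closest relative, and 7.86 times in means not divided by length. Exons of an antisense transcript cover 49.1% of the exonic bases of *Bmp5* and 40.3% of those of *Gdf5*, so part of their few reads may belong to that other gene. The summed level per kb of TGF-beta ligands was 3.44 times that of BMP and GDF ligands. This direction rested on *Tgfb3*. Without it, *Tgfb1* and *Tgfb2*, at 445 and 108 per kb, together lay below the 941 per kb summed for BMP and GDF ligands. That sum holds *Gdf11* at 300 and *Gdf15* at 111 per kb, so it depends on which ligands are listed. It compares lists of ligands and not the signalling branches themselves.

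Activins and inhibins are dimers built from shared subunits. *Inhba* (chr13:16004256-16031609), which encodes the beta A subunit of activin A, had 2434 normalized counts per kb over the RefSeq-matched transcript. With the length of the longest GENCODE transcript of the gene, an alternative chosen after seeing the data, *Inhba* stood at 582 per kb. *Inhbb*, the beta B subunit, was at 292 per kb, below *Inhba* with either length. *Inha*, the alpha subunit that turns activin into inhibin, was at 60.6 per kb. Its 2 listed transcripts had means of 89.3 and 63.8 normalized counts. Subunits of activins were more abundant than the inhibin-specific subunit, with *Inhba* at 87.3% of the summed level per kb. That share was 62.3% with the longest GENCODE transcripts and 73.6% in means not divided by length.

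All 6 type I receptors were above the floor. *Bmpr1a* (chr14:34411061-34503336), a receptor for BMP2, BMP4 and their relatives, was highest at 599.6 normalized counts per kb. *Tgfbr1* (chr4:47353222-47414926), the partner of *Tgfbr2* in TGF-beta signalling, was at 405 per kb. Transcripts of *Tgfbr1* of 2861 and 5756 bases shared the same mean, and over the longer of them its level was 201 per kb. Over its shortest transcript, of 1713 bases, *Tgfbr1* was at 617 per kb. BMP and TGF-beta type I receptors were thus both present, and their order depended on the transcript. *Bmpr1a* was ahead of *Tgfbr1* by 1.48-fold per kb over the main transcripts and slightly behind it over the shortest of *Tgfbr1*. Before division by length the mean of *Bmpr1a* was 3.09 times that of *Tgfbr1*. *Acvr1*, a type I receptor for BMPs, was at 236 per kb, within the range that the lengths of *Tgfbr1* allow. *Acvr1b*, the activin type I receptor, was at 118 per kb and *Acvrl1*, a receptor mainly of endothelial cells, at 53.4 per kb. *Bmpr1b*, known from cartilage and the ovary, was the lowest at 20.9 per kb over its main transcript, although over its shortest it was at 58.0 per kb. Over main transcripts *Bmpr1a* exceeded it 28.6-fold, or 19.0-fold with the mean length of the transcripts listed for each gene.

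The 4 type II receptors were also above the floor. *Tgfbr2* (chr9:116087695-116175363), which binds TGF-beta, was at 326 normalized counts per kb. *Bmpr2* (chr1:59764279-59878081), the type II receptor specific to BMPs, was at 214 per kb. For the activin type II receptors, which also bind BMPs, *Acvr2a* was at 119 per kb and *Acvr2b* at 24.8 per kb. The leading type II receptor of each branch was thus present, but *Bmpr2* had more reads than *Tgfbr2* before division by length, with means of 2763 and 2640 normalized counts. The summed level per kb of type II receptors was 0.478 times that of type I receptors, but before division by length the ratio of summed means was 0.973. Whether *Tgfbr2* or *Tgfbr1* was higher per kb depended on the transcript length, with a ratio of 0.807 that rose to 1.62 over the longest listed transcripts. Over its shorter listed transcript *Tgfbr2* was at 759 per kb, above the 617 per kb of the shortest of *Tgfbr1*.

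*Bambi* (chr18:3507011-3516404), a pseudoreceptor that lacks a kinase domain and dampens signalling, was at 472 normalized counts per kb. *Tgfbr3*, or betaglycan, which presents TGF-beta2 to its receptors, was at 128 per kb. *Eng*, or endoglin, a coreceptor typical of endothelium, was at 103 per kb. *Bambi* led this group, at 67.1% of its summed level per kb.

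**Figure D2:**
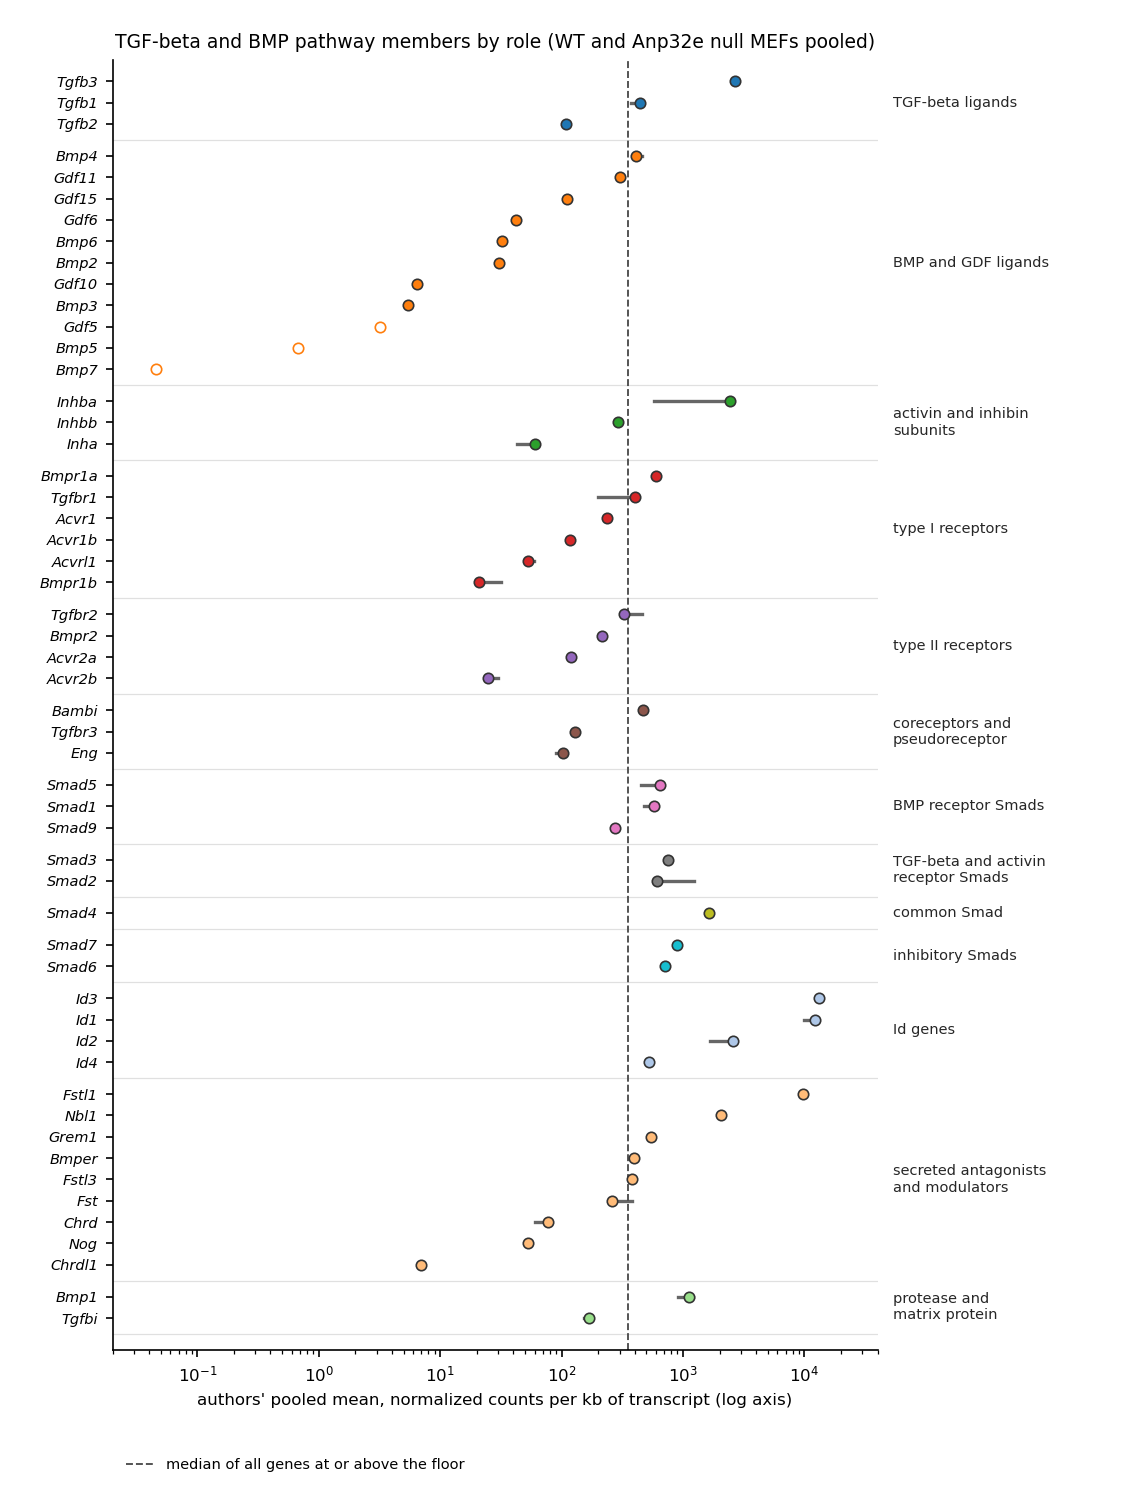
Authors' pooled mean per kb of transcript (log axis) for the 53 members, grouped by role. Points are levels over the main transcript, horizontal lines span the levels under the other lengths tried and are not errors, open points are the 3 members below 10 normalized counts, and the dashed line is the all-gene median of 353. *Id3*, *Id1* and *Fstl1* stand at the right, and BMP and GDF ligands extend furthest to the left.

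Smad transcripts were present for both branches. *Smad5* (chr13:56703010-56742378) and *Smad1* (chr8:79338395-79399428), BMP receptor Smads, were at 651 and 579 normalized counts per kb, and their ranges over the lengths tried overlapped. *Smad9*, the third BMP receptor Smad, was lower at 277 per kb. *Smad3* (chr9:63646766-63757994) and *Smad2* (chr18:76241090-76311748), which carry TGF-beta and activin signals, were at 746 and 614 per kb. The order of *Smad3* and *Smad2* cannot be given, since *Smad2* was at 1227 per kb with the mean length of its listed transcripts. Per kb, the summed level of *Smad2* and *Smad3* was 0.902 times that of the BMP receptor Smads, and this ratio reached 1.39 under that other length. The order of the branches by their receptor Smads therefore depended on transcript length.

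*Smad4* (chr18:73634790-73703791), the shared partner of receptor Smads, was at 1628 normalized counts per kb, the highest Smad over main transcripts. *Smad2* was above it over either of its shorter transcripts, at 2060 and 3013 per kb. The means of the 4 listed transcripts of *Smad4* ran from 4556 to 5510 normalized counts. *Smad7* (chr18:75367365-75395935) and *Smad6* (chr9:63953076-64022085), inhibitory Smads that act in feedback, were at 894 and 717 per kb. At these lengths, both inhibitory Smads were above *Smad1*, *Smad5*, *Smad9* and *Smad2* per kb.

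Id genes had the highest summed level per kb of any role, at 28551 normalized counts per kb against 13456 for secreted antagonists and modulators. Before division by length the order was the reverse, with summed means of 33579 and 45982 normalized counts. *Id3* (chr4:136143822-136145392) was at 13103 per kb and *Id1* (chr2:152736251-152737410) at 12333 per kb. They ranked above 97.8% and 97.6% of genes above the floor. The gap between *Id3* and *Id1* was 1.06-fold and no spread between replicates is available to judge it. *Id2* (chr12:25093799-25096092) was at 2589 per kb, or 1670 per kb over its longest GENCODE transcript, which left it below *Id1* with either length. *Id4*, known from neural development, was at 527 per kb. Transcripts of all 4 Id genes were thus above the all-gene median per kb, but *Id1* exceeded *Id4* 23.4-fold. In means not divided by length it exceeded *Id4* 5.68-fold.

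Promoter windows of 300 bases, from 250 before to 50 after the start, were matched for 36 of the 53 members (67.9%) from RefSeq (GRCm38.p6). That share is under the 80% set for describing the whole list, so no comparison of the members' promoters with all promoters was made. Windows were searched for GTCTAGAC, a palindromic Smad-binding element, and for GGCGCC, a GC-rich element bound by BMP receptor Smads. Each reads the same on both strands and the motifs do not overlap each other in the windows printed. Of all 32851 windows, 0.213% held the first motif and 11.9% held the second. Among members, the first was found in *Smad6* alone and the second in 12 genes, *Acvr1b*, *Bmpr1a*, *Bmpr2*, *Chrd*, *Gdf10*, *Grem1*, *Id2*, *Id4*, *Nbl1*, *Smad9*, *Tgfbi* and *Tgfbr1*. The windows of *Id3* and *Id2* are printed as the most abundant Id genes with a window, that of *Smad6* for its motif and that of *Bmp5* as a ligand below the floor. They lie at chr4:136143572-136143871 (plus strand), chr12:25096043-25096342 (minus strand), chr9:64022010-64022309 (minus strand) and chr9:75775115-75775414 (plus strand). The *Id3* window follows the RefSeq start of the gene, and the GENCODE transcript used for its length starts 325 bases away. Capitals mark either motif.
Id3: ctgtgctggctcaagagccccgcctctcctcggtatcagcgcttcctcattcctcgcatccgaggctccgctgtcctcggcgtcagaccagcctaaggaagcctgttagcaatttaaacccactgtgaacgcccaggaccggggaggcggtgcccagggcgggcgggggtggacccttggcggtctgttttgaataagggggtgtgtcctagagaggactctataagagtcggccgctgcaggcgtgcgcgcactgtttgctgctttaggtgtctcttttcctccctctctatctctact
Id2: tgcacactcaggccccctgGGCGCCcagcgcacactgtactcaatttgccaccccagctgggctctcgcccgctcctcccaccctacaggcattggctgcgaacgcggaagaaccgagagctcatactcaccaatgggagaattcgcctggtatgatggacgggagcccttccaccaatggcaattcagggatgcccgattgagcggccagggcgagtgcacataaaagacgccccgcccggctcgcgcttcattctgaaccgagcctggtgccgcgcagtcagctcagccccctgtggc
Smad6: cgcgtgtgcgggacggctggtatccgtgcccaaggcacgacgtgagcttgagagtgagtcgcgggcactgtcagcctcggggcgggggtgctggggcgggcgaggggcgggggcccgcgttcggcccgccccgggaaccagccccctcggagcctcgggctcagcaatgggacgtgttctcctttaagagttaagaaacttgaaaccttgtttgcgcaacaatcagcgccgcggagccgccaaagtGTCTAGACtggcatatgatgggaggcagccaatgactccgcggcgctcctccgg
Bmp5: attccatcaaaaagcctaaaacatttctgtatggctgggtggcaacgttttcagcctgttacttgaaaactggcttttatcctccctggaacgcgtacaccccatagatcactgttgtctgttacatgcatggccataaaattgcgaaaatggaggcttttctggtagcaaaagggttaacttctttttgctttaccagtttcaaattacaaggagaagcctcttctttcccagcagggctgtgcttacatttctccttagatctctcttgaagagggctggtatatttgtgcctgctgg

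GC content was 60% in the *Id3* window, 63.3% in that of *Id2* and 66.3% in that of *Smad6*, with 19, 21 and 31 CpG dinucleotides. The *Bmp5* window had 43.3% GC and 4 CpG dinucleotides, beside medians of 52.7% and 7 over all windows. The windows printed do not stand for the others, since the scarce *Gdf10* had 77.3% GC in its window and the abundant *Inhba* 47.7%. A motif match describes letters in a window and was not tested for binding.

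Levels per kb of secreted antagonists and modulators spanned 1399-fold, the widest range of any role among members above the floor. *Fstl1* (chr16:37777055-37836516), a secreted glycoprotein related to follistatin, was highest at 9671 normalized counts per kb and held 71.9% of the summed level per kb of the role. *Nbl1*, or DAN, which gave its name to a family of BMP antagonists, was at 2064 per kb. *Grem1* (chr2:113748675-113758648), or gremlin, of the same family, was at 549.6 per kb. Both of these DAN family antagonists were above the all-gene median per kb. *Bmper*, an extracellular BMP-binding regulator, was at 395 per kb, and *Fst*, or follistatin, which neutralizes activins, was at 259 per kb over its main transcript. Over its shortest transcript *Fst* was at 637 per kb, above *Bmper* and *Grem1*, so its place among the antagonists was not settled. *Fstl3*, a follistatin relative, was at 379 per kb, but exons of *Prss57* on the opposite strand cover 59.2% of its exonic bases, so its level is uncertain.

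The classical embryonic BMP antagonists were much lower. *Chrd*, or chordin, was at 77.2 normalized counts per kb and *Nog*, or noggin, at 52.9 per kb. *Chrdl1*, a chordin relative, was at 6.92 per kb, and the means of its transcripts ran from 13.8 to 28.3 normalized counts. *Grem1* was thus 10.4 times as abundant per kb as *Nog*, and 25.4 times in means not divided by length. The summed level per kb of antagonists and modulators was 14.3 times that of BMP and GDF ligands, and 4.02 times without *Fstl1*. Among the rest *Nbl1* was the highest, at 2064 per kb. The lists are not matched, since *Fst* neutralizes activins and *Gdf11* signals through activin receptors. Neither ratio therefore sets BMP antagonists against BMPs alone.

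*Bmp1* (chr14:70474555-70520716), a protease that processes procollagens and cleaves chordin, was at 1115 normalized counts per kb. *Tgfbi*, a matrix protein named for its induction by TGF-beta, was at 169 per kb, or 6.61-fold lower than *Bmp1*. In means not divided by length the gap was 10.6-fold.

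**Figure D3:**
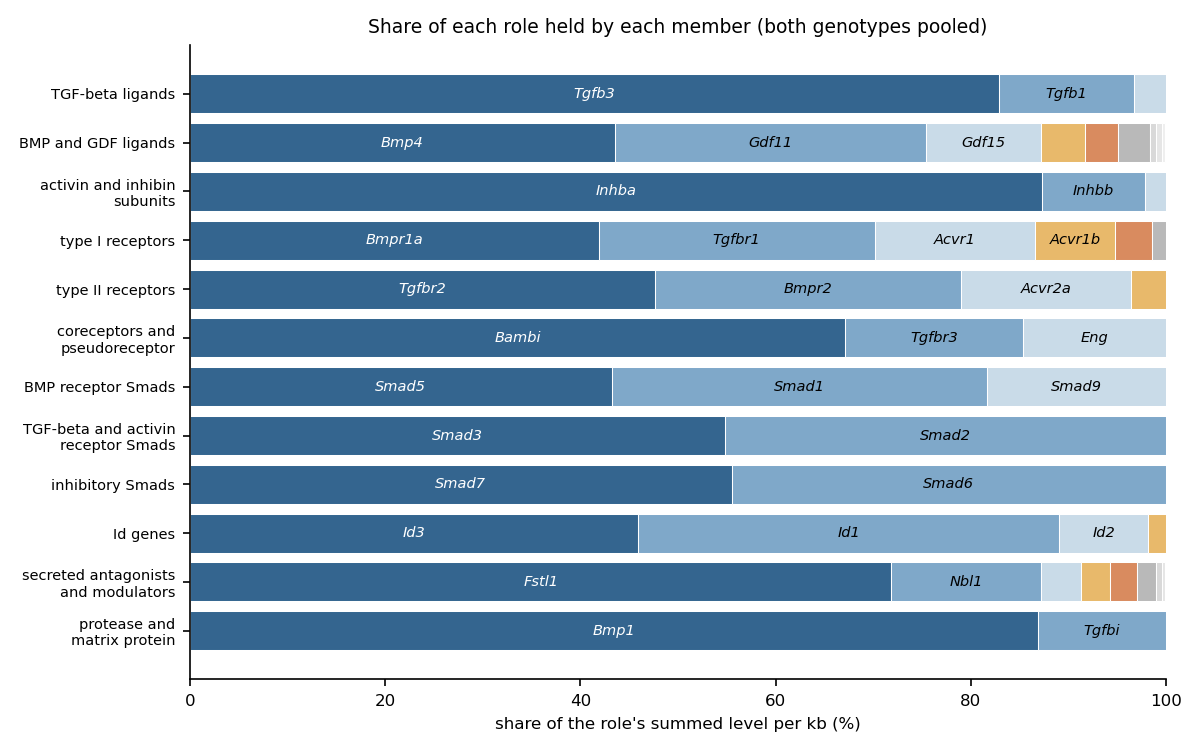
Share of each role's summed level per kb (authors' pooled mean) held by each member, with members in order of share and names shown for shares of 8% or more. *Smad4*, alone in its role, is left out. *Inhba*, *Bmp1*, *Tgfb3* and *Fstl1* hold 87.3%, 86.9%, 82.9% and 71.9% of their roles over main transcripts. With the longest GENCODE transcripts *Inhba* holds 62.3%.

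How far these orders rest on transcript length was examined within roles. Of 37 neighbouring pairs, 33 had ranges over the lengths tried that did not overlap, and the exceptions were *Tgfbr1* with *Acvr1*, *Smad5* with *Smad1*, *Smad3* with *Smad2* and *Fstl3* with *Fst*. Of those 33 pairs, 3 had the reverse order in means not divided by length, namely *Bmp4* with *Gdf11*, *Gdf10* with *Bmp3* and *Tgfbr2* with *Bmpr2*. With every listed transcript counted in the ranges, *Bmpr1a* with *Tgfbr1* and *Acvrl1* with *Bmpr1b* overlapped as well, which left 28 pairs with 1 order throughout. Over a single listed transcript 8 members moved by more than 1.5-fold from the level printed. Besides *Tgfbr1*, *Tgfbr2*, *Bmpr1b*, *Smad2* and *Fst*, these were *Acvr2b* at up to 37.7 per kb, *Acvrl1* at up to 100.4 and *Chrdl1* at down to 3.41. These added ranges, transcripts and means were chosen after seeing the data. A pair that kept its order may still differ by less than replicates do, which pooled means cannot show. For 32 members the table lists 1 transcript. Among the 21 members with several, only *Chrdl1*, *Inha* and *Smad4* had transcript means that differed by more than 1.1-fold. Many members with 1 transcript, such as *Bmp6* and *Bmp2*, had the same length under every setting. Their ranges had no width, so a pair of such members could not overlap. For such pairs the lack of overlap is no check on length.

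Of 77 other pathway genes, 55 were above the floor, with a median of 548 normalized counts per kb. Other ligands of the TGF-beta family, a list that also holds *Nodal*, *Amh* and the *Nodal* antagonists *Lefty1* and *Lefty2*, passed it in 6 of 14 cases, with a median of 19.0 per kb, and 4 of them were listed at 0. Those ligands above the floor ran from 8.32 per kb for *Lefty1* to 136 for *Bmp8b*, all below *Bmp4* and *Gdf11*. Other antagonists passed it in 5 of 12 cases, with a median of 763 per kb. The genes named from here on as highest in a list were chosen after their values were seen. *Bgn*, or biglycan, a matrix proteoglycan, was the highest other antagonist at 13192 per kb. Per kb it exceeded *Fstl1*, whereas before division by length its mean was 31912 normalized counts against 36644 for *Fstl1*.

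Genes for latency and activation of TGF-beta were above the floor in 13 of 15 cases, with a median of 813 normalized counts per kb. *Thbs1*, or thrombospondin 1, which can activate latent TGF-beta, was the highest of them at 32166 per kb. All 14 intracellular regulators, which include Smad ubiquitin ligases and corepressors, were above the floor, with a median of 439 per kb. The highest of these was *Tgif1*, a corepressor of Smads, at 2881 per kb. All 15 common targets were above the floor with a median of 4408 per kb, and *Acta2*, or smooth muscle actin, was the highest at 204352 per kb. *Dlx5*, *Hey1* and *Msx1*, at 28.7, 110 and 269 per kb, were below the all-gene median, and the other targets were above it. *Tgif1* is counted in this list as well. Common targets had the highest median level per kb of these lists, and many of them are also structural genes of fibroblasts.

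The label of the cells as fibroblasts was set beside marker genes. Of 12 fibroblast markers, 10 were above the floor, with a median of 2090 normalized counts per kb. The highest were *S100a4* at 174860 and *Vim* at 150796 per kb, while *Lum* and *Fap* were below the floor at 1.33 and 3.22 normalized counts. *Dcn* and *Pdgfra*, at 81.8 and 91.9 per kb, were above the floor but below the all-gene median. The other fibroblast markers above the floor were above that median. The fibroblast markers *Col1a1* and *Col1a2* also belong to the common targets, and *Dcn* to the other antagonists. The pooled cultures thus carried most but not all of the fibroblast markers listed.

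Markers of other cell types were also present in part. All 8 mesothelial markers were above the floor, with a median of 174 normalized counts per kb, and *Krt19* was the highest at 4696 per kb. Of 4 endothelial markers 2 were above the floor, *Kdr* at 499 and *Tek* at 8.25 per kb, whereas *Pecam1* and *Cdh5* were below it at 4.47 and 3.54 normalized counts. *Kdr* therefore stood apart from the other endothelial markers. Among macrophage markers 2 of 5 were above the floor, with *Cd68* at 209 per kb and *Ptprc* below it at 3.09 normalized counts. Epithelial markers were above it in 1 of 4 cases, *Cdh1* at 15.1 per kb, and skeletal muscle markers in 1 of 4, *Des* at 19.7 per kb, with *Myod1* listed at 0. Neural and glial markers were above it in 2 of 4 cases, *Tubb3* being the highest at 395 per kb, and chondrocyte markers in 4 of 4, with a median of 44.9 per kb. The part that cells of these types had in the pathway levels was not tested.

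**Figure D4:**
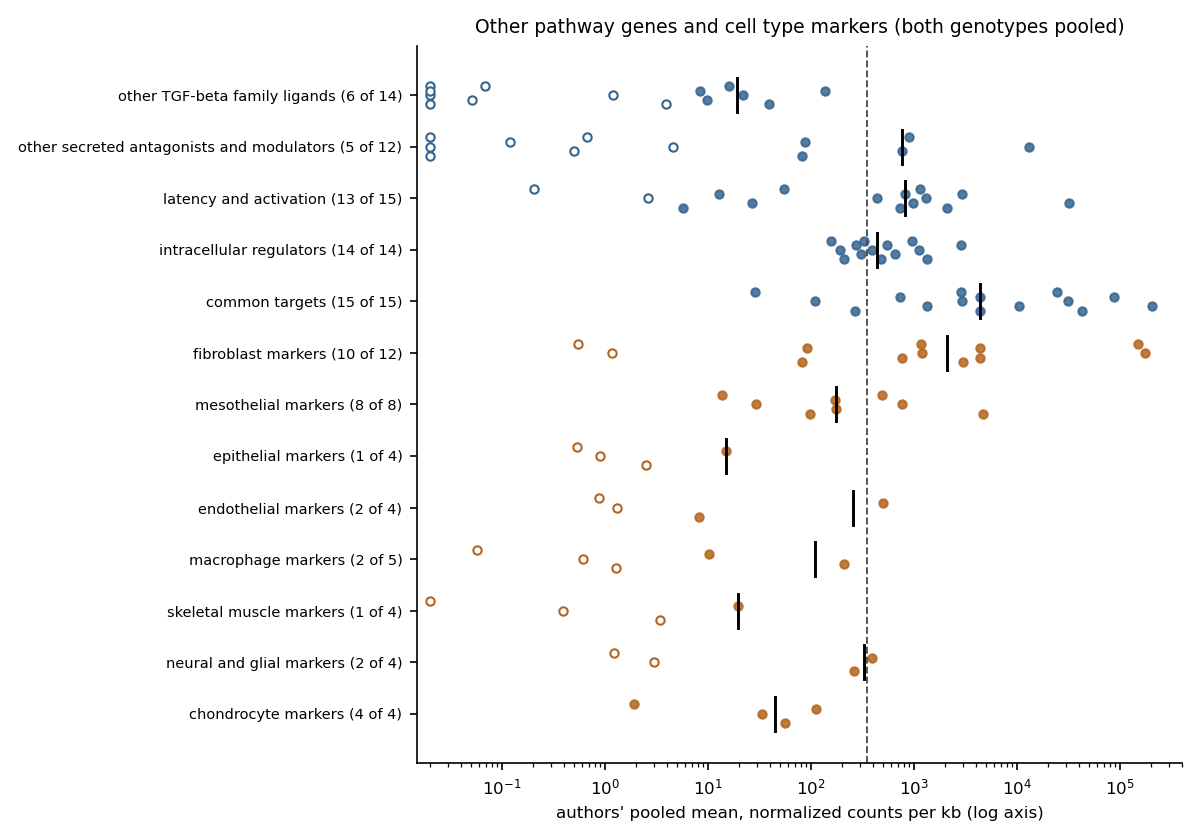
Authors' pooled mean per kb of transcript (log axis) for the larger lists of other pathway genes (blue) and for cell type markers (brown). Filled points are at or above 10 normalized counts, open points are below it, genes at or near 0 are drawn at the left edge, black bars are medians of the filled points and the dashed line is the all-gene median of 353. Numbers in brackets give the genes above the floor of those listed, such as 15 of 15 common targets and 6 of 14 other ligands.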

How the data were processed

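RNA-Seq libraries (TruSeq Stranded Total RNA kit, paired-end) were made from WT and *Anp32e* null MEFs. Alignment to mm10 used RNA-STAR, and reads on each RefSeq transcript were counted by featureCounts of Subread. The authors then applied DESeq2. Default settings are stated for featureCounts and DESeq2 together, without naming the strand option of the counting. The deposited signal is the mean of size-factor-normalized counts over both genotypes. The other 5 columns hold the authors' own comparison (log2 fold change, its standard error, statistic, p-value and adjusted p-value) and were not used. Depth per library is not given in the sources used here. Of 42361 transcripts, 158 matched no gene of the RefSeq annotation of GRCm38. Means were divided by exonic lengths from GENCODE vM21 and ranked over 13974 genes with a mean of at least 10 and a length. For 3 members without a length for the main transcript, other listed transcripts gave it. Members and lists were chosen with earlier results of these data known. All 53 members are reported, with values for those above the floor. Alternatives were other floors, lengths and roles. Python 3.11.15, numpy 2.4.6, pandas 2.3.3 and matplotlib 3.10.9 were used. Only the step that turns transcript means into levels per kb was tested on simulated data. There each mean was set in proportion to transcript length. Transcripts of different lengths that share a mean, such as those of *Tgfbr1*, were not simulated.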

Additional observations from a re-analysis of the deposited data

How the results depend on the processing

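The count of members above the floor was 51 with a floor of 3 and 47 with a floor of 50 normalized counts, beside 50. The median level per kb of members lay between 292 and 358 with every member included or with other lengths. It was 300.1 with a floor of 3 and 379 with a floor of 50, beside 279 and 467 for all genes, so with a floor of 3 the members' median was the higher. The all-gene median was 380 among autosomal coding genes. Without division by length, *Gdf11* led the BMP and GDF ligands (45.4%), *Bmpr2* the type II receptors (44.9%) and *Smad2* the TGF-beta and activin receptor Smads (56.7%). With the mean length of listed transcripts *Smad2* also led (62.2%), and *Smad1* led the BMP receptor Smads (40.8%), as it did with the longest listed (44.5%) and the longest GENCODE transcript (39.6%). Among antagonists widened by other pathway genes, *Bgn* led per kb (46.3%), though not in means. These changes follow from the lengths and lists themselves. The other 46 of 54 recomputed shares kept the leading gene and moved by at most 1.5-fold. Of 159 recomputed levels of members 6 moved by more than 1.5-fold, those of *Inhba*, *Tgfbr1* with either longest transcript, *Bmpr1b*, *Smad2* and *Id2*. Many of the 159 could not move. For the 32 members with 1 listed transcript, the longest and the mean listed length are the length already used. Of the gene pairs given as folds, *Tgfbr2* to *Tgfbr1* turned from 0.807 per kb to 2.28 in means, and *Id1* to *Id4* went from 23.4 to 5.68. Other folds kept their direction in means but changed in size. *Grem1* to *Nog* rose from 10.4 to 25.4, *Bmpr1a* to *Tgfbr1* from 1.48 to 3.09 and *Bmp1* to *Tgfbi* from 6.61 to 10.6. *Tgfb3* to *Tgfb1* rose from 6.04 to 9.39, whereas *Tgfb3* to *Tgfb2* fell from 24.9 to 16.5 and *Bmp4* to *Bmp2* from 13.5 to 7.86. The longest GENCODE transcript, the mean length and floors for the medians, and means of roles and pairs were added after seeing the data. No paired analysis was possible because the table holds no values per library. Depth per library is unknown, so no interval can be given.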
